A study of Drosophila melanogaster with 2 samples.

Results

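Irbp18 (CG6272) is a fly transcription factor, and the sites described here are the 682 candidate binding sites at gene starts that the deposited conservative pooled analysis ranked just below its threshold. They were chosen by the irreproducible discovery rate (IDR), a measured value that says how poorly a candidate's rank recurs between replicates, so that a low IDR means a well recurring site. A member had an IDR above 0.01 and up to 0.05 in the pooled ranked list and a summit, the highest point of the candidate, within 500 bp of an annotated transcription start on 1 of the 5 large chromosome arms. These 682 were 30.4% of the 2243 candidates in that IDR band, within a list of 128881. The other 1561 of the band lay farther from starts and are called weaker candidates away from starts below. The 1900 candidates at starts with an IDR up to 0.01 (55.4% of 3427) are called stronger promoter candidates. All come from 1 group of 2 biological replicates, in which transgenic Drosophila melanogaster of the strain CG6272-GFP carried an Irbp18-eGFP fusion. Whole embryos aged 0 to 24 h were used, and chromatin bound by the fusion was pulled down by its tag with anti-GFP and sequenced (chromatin immunoprecipitation sequencing, ChIP-seq). No untagged or untreated group was analysed here, the tagged copy stands beside whatever native factor the strain retains, and in whole embryos a site used in few cells and a site used weakly in many cannot be told apart.

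Irbp18 belongs to the C/EBP class of basic leucine zipper (bZIP) proteins, which bind DNA as dimers. It pairs with Xrp1, a bZIP factor known for DNA damage responses and for the elimination of less fit cells in cell competition, and with crc, the fly ATF4 of the integrated stress response. Fly promoters fall into broad kinds. Promoters of widely used genes often carry the DNA replication-related element (DRE), the CGATA core bound by the insulator protein BEAF-32, motif 1 or motif 7, and many promoters of regulated genes carry a TATA box.

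The sequences below are those of members with the highest signal value, the authors' measure of a candidate's height, and of members that carry a motif to which the results return. Each window holds the summit base and 50 bases on either side, 101 in all, from the plus strand of the release 6 reference (dm6), 5′ to 3′. The motifs searched on both strands included the DRE TATCGATA, the CGATA core (which also lies within every DRE), motif 7 as CATCNCTA, motif 1 as GGTCACACT, the TATA box TATAAA, the TCT initiator YYCTTTYY, the relaxed C/EBP site TTRCNNAA and the composite C/EBP and ATF4 site TGATGYAA (CARE). In the first set, from 6 of the 12 members with the highest signal value, capitals mark every match to a searched motif. CG7878 held none of them.
SCCRO4, chr3L:20302364-20302464: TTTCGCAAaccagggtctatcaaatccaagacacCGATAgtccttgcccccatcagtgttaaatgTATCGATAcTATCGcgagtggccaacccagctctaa
UQCR-14, chrX:16286215-16286315: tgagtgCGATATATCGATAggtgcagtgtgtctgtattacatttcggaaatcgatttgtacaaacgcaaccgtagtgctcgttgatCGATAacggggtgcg
CG5149, chr2L:7388212-7388312: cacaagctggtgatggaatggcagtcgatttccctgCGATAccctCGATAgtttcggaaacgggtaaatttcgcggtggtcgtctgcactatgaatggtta
CG18178, chr3L:9719159-9719259: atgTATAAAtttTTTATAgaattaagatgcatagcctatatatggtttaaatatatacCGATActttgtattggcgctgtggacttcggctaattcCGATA
Fkbp39, chr3R:15333117-15333217: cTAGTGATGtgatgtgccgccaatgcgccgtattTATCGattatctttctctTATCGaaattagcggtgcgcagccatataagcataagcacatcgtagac
CG7878, chr3R:8122344-8122444: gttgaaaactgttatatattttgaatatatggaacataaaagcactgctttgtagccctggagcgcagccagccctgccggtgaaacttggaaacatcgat
In the second set capitals mark only the motif for which the window is shown, which is motif 7 for Naa40, the TCT initiator for Mekk1, the relaxed C/EBP site for Sec5 and the CARE for c12.2.
Naa40, chr3R:29724881-29724981: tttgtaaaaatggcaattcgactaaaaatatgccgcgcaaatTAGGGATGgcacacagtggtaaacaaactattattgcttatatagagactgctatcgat
Mekk1, chr3R:18740058-18740158: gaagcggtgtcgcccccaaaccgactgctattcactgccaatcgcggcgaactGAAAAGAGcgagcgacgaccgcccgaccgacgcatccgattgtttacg
Sec5, chr2L:3457202-3457302: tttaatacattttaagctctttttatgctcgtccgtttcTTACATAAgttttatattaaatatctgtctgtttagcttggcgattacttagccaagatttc
c12.2, chrX:9319519-9319619: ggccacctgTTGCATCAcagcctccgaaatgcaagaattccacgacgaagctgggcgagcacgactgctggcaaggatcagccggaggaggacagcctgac
A match is a description of letters and not a shown binding site.

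The middle of the members' signal values was narrow, with a tail of low ones. The lowest was 2.25, the quartiles were 58.1 and 72.6, the median was 64.6 and the highest was 130. The stronger promoter candidates had a median of 132, and the weaker candidates away from starts had 62.7. IDR is given from here on as its negative decimal logarithm where so named. On that scale the members ran from 1.3 to 1.999 with a median of 1.61, which corresponds to an IDR of 0.0248. Every member was 356 bp wide, as were all 1561 weaker candidates away from starts and 72.4% of the stronger promoter candidates. None of the members lay within 100 bp of a summit of the authors' conservative thresholded list, which belongs to the ranked list used here. Of the 682, 145 (21.3%) lay within 100 bp of a summit in the authors' other pooled thresholded list, so part of the members passed in that analysis. These values describe the selection and carry no test.

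At the end of the band near 0.05, the members just inside were those of Cip4, Pde8 and CG46025, with an IDR of 0.04997, 0.04986 and 0.04981. Just outside were candidates at CG14507, CG1896 and Tfb4, with 0.05048, 0.05043 and 0.05016. Tfb4 had a signal value of 112, above most members, so the edge followed recurrence and not height. At the end near 0.01, Ate1, lncRNA:CR43417 and RpL7A lay inside with 0.01005, 0.01003 and 0.01002, and CG30222, CG16700 and CG13742 lay outside with 0.009986, 0.009956 and 0.009946.

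A small share of the members were low, overlapping candidates. Of the 682, 50 overlapped a candidate of higher signal value whose IDR was equal to within 0.001 on the negative decimal logarithmic scale. The partner was itself a member in 42 of these pairs. Among the 49 members with a signal value under 30, 45 were of this kind, and the median signal value of the 49 was 10.1. Such pairs lay at Rab35, with signal values of 76.7 and 6.60, at mir-277, with 69.3 and 4.79, and at ATPsynF, with 47.3 and 6.97. Of the 49, 30 had no summit within 100 bp in either replicate's ranked list and 0 had one in both. Their median distance to the nearest replicate summit was 196 bp (replicate 1) and 175 bp (replicate 2), against 21 and 28 bp for the other 633. These genes were chosen after their values were seen. With overlapping candidates of equal IDR counted once, 632 members remained, with a median signal value of 65.2. Of these, 4 had a signal value under 30, at spi (11.1), SmD3 (10.1), tRNA:Phe-GAA-1-5 (6.34) and shps (21.3).

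**Figure D1:**
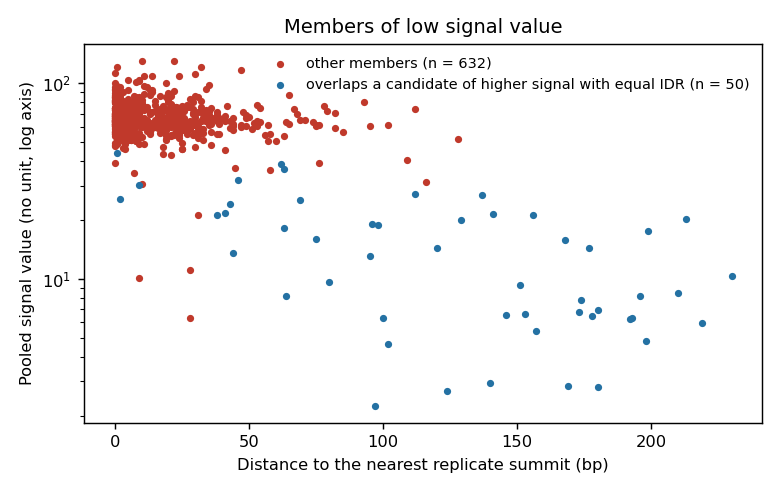
Pooled signal value of each member (no unit, log axis) against the distance in bp from its summit to the nearest summit in either replicate's ranked list. Blue points are the 50 members that overlap a candidate of higher signal value and equal IDR, and red points are the other 632; nearly all points under 30 are blue.

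Most members had a ranked summit nearby in both replicates, but not a strong one in both. A ranked summit lay within 100 bp in replicate 1 for 606 members (88.9%, 95% interval 86.3 to 91.1) and in replicate 2 for 583 (85.5%, 82.6 to 88.0). Both held 542 (79.5%, 76.2 to 82.4) and neither held 35. The share found in both was 90.7% for stronger promoter candidates and 78.0% for weaker candidates away from starts. These ranked lists are long, with 117490 summits (replicate 1) and 113421 (replicate 2) on the 5 arms. How often a random position would match was not computed. In the replicates' own thresholded lists the counts were much lower, 63 members in replicate 1 (9.24%, 7.17 to 11.7) and 12 in replicate 2 (1.76%, 0.912 to 3.05). No member was in both thresholded lists, which allows a share of up to 0.539%. Of the stronger promoter candidates, 973 (51.2%) were in both. The replicate lists share reads with the pooled list that chose the members, so these counts are a description.

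Across the members the replicate signal values traded off. In replicate 1 they ran from 28.9 to 96.9 with a median of 36.2, and in replicate 2 from 23.9 to 68.3 with a median of 28.5. A member high in one replicate was near the floor of the other. Over the 542 members found in both, the Spearman rho between the replicates was -0.61. The IDR that chose the members is computed from ranks in both sets, so rho is given as a description with no test. The pooled signal value had a rho of 0.48 with replicate 1 and of 0.07 with replicate 2 over the same sites.

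**Figure D2:**
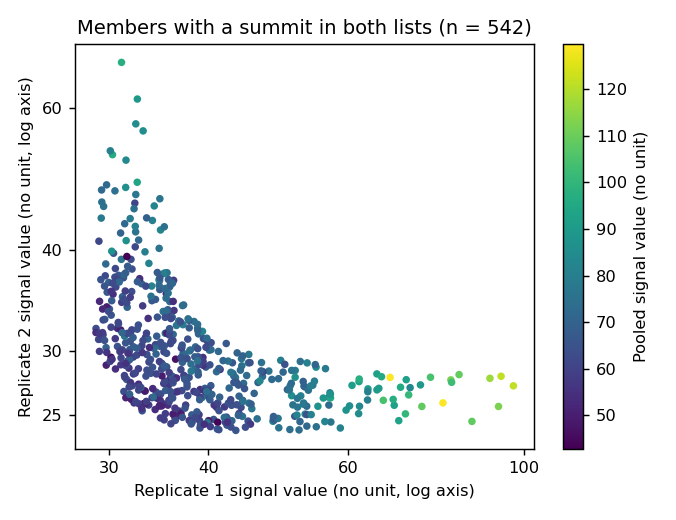
Signal values of the 542 members with a ranked summit within 100 bp in both replicates, replicate 1 across and replicate 2 up (no unit, log axes), coloured by pooled signal value. Points form 2 arms, and the members with the highest pooled values lie on the arm along replicate 1, with replicate 2 values under 30.

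The 12 members with the highest signal value lay upstream of their nearest start in all 12 cases, within 100 bp of it in 9, and near starts on both strands (a divergent promoter) in 7. In replicate 1 their signal values ran from 66.5 to 96.9, and 10 were thresholded there. In replicate 2 they ran from 24.6 to 28.1, and 1 was thresholded. They thus stood high in the members' range of replicate 1 and in the lower part of that of replicate 2. They were chosen by IDR and by pooled signal value, so this is a description.

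The highest, at 130, lay 477 bp upstream of PHDP, a homeodomain gene (FBgn0025334; 2R:23884739-23885094), with 79.0 in replicate 1 and 25.9 in replicate 2. The candidate 17 bp upstream of SCCRO4 (FBgn0036967; 3L:20302236-20302591) had 129, with 67.8 and 27.8. SCCRO4 belongs to a family that helps attach the ubiquitin-like protein Nedd8 to cullins. It was the 1 of the 12 that was thresholded in replicate 2, and a stronger summit lay 205 bp away. CG18178 (3L:9719031-9719386) followed with 122, from 93.5 and 27.9.

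Iswi, the ATPase of several chromatin remodelling complexes (2R:12636458-12636813), had 121, with the highest replicate 1 value of all members, 96.9, and 27.2 in replicate 2. Sac1, a phosphoinositide phosphatase gene (3L:1247771-1248126), had 117, with 90.6 and 27.8. Upstream of CG7878, at 331 bp, the value was 113, with 92.8 and 25.6. In these 3 as well, replicate 2 was near the low end of its range. Rtnl1, which encodes a reticulon that shapes the endoplasmic reticulum, had 112 (80.9 and 27.7) and was thresholded in neither replicate. UQCR-14, a subunit gene of respiratory complex III (X:16286087-16286442), had 109 (82.8 and 28.1), 23 bp upstream of the start. Fkbp39, an FK506-binding prolyl isomerase gene, had 108 (86.0 and 24.6), 34 bp upstream. The last 3 were l(2)k09913 (108), CG5149 (105) and CG8545 (104).

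Members lay upstream of the start less often than the stronger promoter candidates. Upstream summits made up 54.8% of the members (374 of 682, 51.0 to 58.6) and 79.2% of the stronger promoter candidates (1504 of 1900, 77.3 to 81.0), an odds ratio of 0.320 (0.264 to 0.387; Fisher's exact test, two-sided, adjusted p = 5.29e-32 over 3 position tests). The median position was 16 bp upstream for members, with quartiles of 93 bp upstream and 153.5 bp downstream. For stronger promoter candidates it was 77.5 bp upstream, with quartiles of 154 and 17 bp upstream. The stretch from 200 to 500 bp downstream held 20.7% of the members and 4.95% of the stronger promoter candidates.

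Upstream, the stretch from 200 to 100 bp before the start held 10.4% of the members and 24.2% of the stronger ones. The share within 100 bp of a start was 45.6% for members and 50.5% for stronger promoter candidates (odds ratio 0.821, adjusted p = 0.0287 by Fisher's exact test). That difference was not stable, since it turned to 1.36 without replicate 1 and 1.05 without replicate 2, in which the rule was applied to the list of the other replicate. It also missed the threshold with overlapping candidates counted once (odds ratio 0.861, adjusted p = 0.107 by Fisher's exact test).

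**Figure D3:**
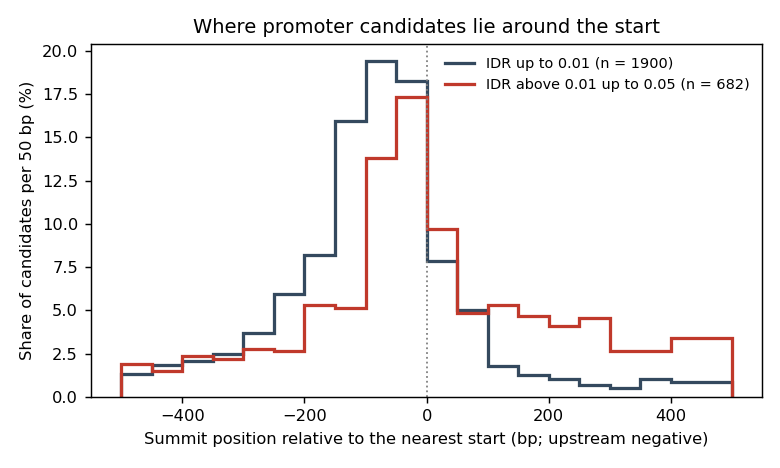
Share of candidates per 50 bp (%) by position of the summit relative to the nearest annotated start in bp, upstream negative. The 682 members (red) extend downstream of the start, while the 1900 stronger promoter candidates (dark) gather upstream, with a median of 77.5 bp before the start.

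Divergent promoters, taken here as starts on both strands within 500 bp of the summit in any order, were less common among the members. They made up 22.6% (154 of 682, 19.5 to 25.9) against 39.7% of stronger promoter candidates (755 of 1900, 37.5 to 42.0), an odds ratio of 0.442 (0.359 to 0.543; Fisher's exact test, adjusted p = 3.05e-16). Counting overlapping candidates of equal IDR once gave an odds ratio of 0.449 for divergent promoters and of 0.322 for the upstream share, and both passed (Fisher's exact test, adjusted p = 7.08e-15 and 3.05e-29). The divergent odds ratio was 0.696 without replicate 1 and 0.704 without replicate 2 and passed in both (adjusted p = 0.0112 and 0.00185, Fisher's exact test). Among upstream candidates only it was 0.582 (adjusted p = 4.21e-05, Fisher's exact test), so it overlaps in part with the upstream share.

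Coding exons held many members. In all, 135 summits (19.8%) lay in a coding exon, 117 of them downstream of the nearest start and 18 upstream. Among stronger promoter candidates 42 did (2.21%; odds ratio 10.9, adjusted p = 2.3e-46 by Fisher's exact test over 5 places compared). The weaker candidates away from starts had a coding exon share of 20.9%. Other exons, which include untranslated sequence, held 28.2% against 22.7% (adjusted p = 0.0071, Fisher's exact test), and sequence outside transcripts 33.7% against 54.1% (adjusted p = 1.27e-19, Fisher's exact test). Introns did not pass, at 18.3% against 20.9% (adjusted p = 0.149, Fisher's exact test). These classes exclude one another, so a higher share of one lowers the others.

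By chromosome arm, members numbered 98 on X, 109 on 2L, 158 on 2R, 155 on 3L and 162 on 3R, and 0 of the 5 shares passed against stronger promoter candidates after adjustment (Fisher's exact test). Without adjustment 2 were under 0.05, 2R at 1.27 as odds ratio (p = 0.0263 by Fisher's exact test, adjusted p = 0.111) and 3L with 1.25 (p = 0.0446, adjusted p = 0.111, also by Fisher's exact test). The count of arms past the test depended on the distance chosen, with 1 at a start distance of 200 bp and 3 at 1000 bp, and 1 passed without replicate 1.

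The members were richer in G and C than the stronger promoter candidates. The median GC content of the windows around the summits was 49.0% for members (quartiles 40.6 and 56.4) and 36.6% for stronger promoter candidates (29.7 and 46.5), and it was 50.5% for the weaker candidates away from starts. Windows under 40% GC made up 24.5% of the members (167 of 682, 21.3 to 27.9) and 58.9% of the stronger ones (1120 of 1900, 56.7 to 61.2), an odds ratio of 0.226 (0.184 to 0.276; Fisher's exact p = 1.29e-55). Without replicate 2 the odds ratio was 0.364 (Fisher's exact p = 1.14e-21).

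Both sides of the start were compared as well. Upstream of the start the median GC content was 45.5% in members and 35.6% in stronger promoter candidates, and downstream it was 52% against 43.6%. Of the 6 stretches compared, that from 200 to 100 bp upstream had the widest gap between medians, 45.5% against 29.7% (Fisher's exact test on windows under 40% GC, adjusted p = 5.22e-15). The stretch from the start to 100 bp downstream had the narrowest, 47.5% against 44.6% (adjusted p = 0.00162, Fisher's exact test). All 6 passed, with members the richer in GC each time.

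**Figure D4:**
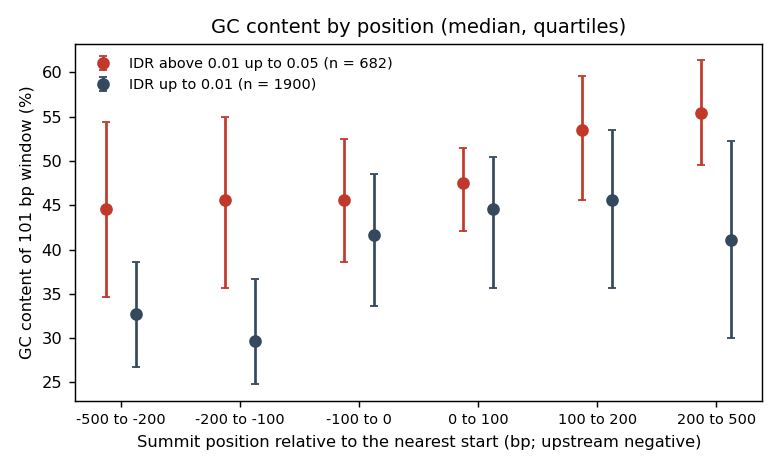
GC content (%) of the 101 bp window around each summit in 6 stretches relative to the nearest start, with points for medians and bars for quartiles. The members (red) have a median above that of the stronger promoter candidates (dark) in each stretch, with the narrowest gap just downstream of the start.

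Within and beyond the band these features differed by degrees. The median GC content was 51.5% at an IDR of 0.03 to 0.05 and 47.5% both at 0.02 to 0.03 and at 0.01 to 0.02. It was 41.6% at 0.001 to 0.01, 35.6% at 0.0001 to 0.001 and 29.7% below 0.0001. Upstream summits over the same steps were 48.2%, 54.9%, 61.6%, 72.5%, 85.1% and 84.4%. TATA boxes were in 7.0%, 9.14%, 10%, 11.6%, 18.1% and 30.4%. The DRE took another course, 3.89%, 4.57%, 6%, 7.72%, 7.26% and then 2.29%. Candidates at starts just past the band, at an IDR of 0.05 to 0.1, had 50.5% GC and 49.8% upstream, close to the members next to them, while their share with a relaxed C/EBP site was 13.2% against 6.61%. The rule sorts along the same IDR, so these steps are a description.

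Motifs known from gene starts were present at the members' summits at shares that are set here beside those of all starts. Windows of equal size centred on all 23132 annotated starts held the DRE in 3.77%, CGATA in 21.4%, motif 7 in 2.92% and motif 1 in 3.05%. The members held the DRE in 33 windows (4.84%), CGATA in 161 (23.6%), motif 7 in 25 (3.67%) and motif 1 in 12 (1.76%). The TATA box was in 8.65% of the members and 15.0% of all starts, and the initiator in 10.9% and 21.3%. Member windows are centred on summits and not on starts, and these shares were not tested against each other.

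Windows 500 bp from the summit, to the left or right at random, held the DRE in 4 cases, CGATA in 86, motif 7 in 2 and motif 1 in 3. Of the weaker candidates away from starts, 0.0641% held the DRE, 9.99% CGATA, 0.384% motif 7 and 0.0641% motif 1. The rule keeps members near starts, where these motifs occur, so both sets of lower counts restate the rule in part and are given without a p. The size also depended on the side of the flank. With flanks upstream of the start only, the ratios of summits to flanks were 3.30 for the DRE, 1.59 for CGATA and 3.57 for motif 7, and with flanks downstream only they were 33.0, 2.18 and 12.5. Without replicate 1 and without replicate 2 the DRE ratio was 11.5 and 4, against 8.25 with both. For motif 7 the ratio was 4 and 11.5, against 12.5 with both. The TATA box was in fewer summit windows than flanks, 59 against 90, a ratio of 0.656. That comparison is bound to the rule in the same way and is also given without a p. The ratio was 0.608 with flanks upstream only and 0.787 with flanks downstream only. It turned to 1.07 without replicate 1 and 1.08 without replicate 2. Where members held a DRE, its median distance from the summit was 22.5 bp, and it was 21 bp in stronger promoter candidates.

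Against the stronger promoter candidates, 4 of 16 motifs differed, and all were less common at the members. The TATA box was in 8.65% (59 of 682) against 18.3% (347 of 1900; odds ratio 0.424, adjusted p = 1.06e-08 by Fisher's exact test). The relaxed C/EBP site was in 8.80% (60) against 16.8% (320; odds ratio 0.476, adjusted p = 1.16e-06, Fisher's exact test). CGATA was in 23.6% against 29.6% (odds ratio 0.736, adjusted p = 0.0152) and the TCT initiator, common at ribosomal protein genes, in 5.57% against 9.05% (odds ratio 0.593, adjusted p = 0.0166, Fisher's exact test for both).

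The TATA box kept its call when either replicate was left out, with odds ratios of 0.416 and 0.546, and the other 3 did not. Without replicate 1 and without replicate 2, CGATA had 0.977 and 0.761 (adjusted p = 1 and 0.0992 by Fisher's exact test), and the TCT initiator had 0.82 and 0.835 (adjusted p = 0.97 and 0.709, Fisher's exact test). The relaxed C/EBP site kept its call without replicate 1 (0.531, adjusted p = 0.00612, Fisher's exact test). It turned to 1.05 without replicate 2 (adjusted p = 0.893, Fisher's exact test). Among windows of 40 to 50% GC, 1 motif passed, CGATA with an odds ratio of 0.55 (adjusted p = 0.0163, Fisher's exact test), while the TATA box had 0.69 and the relaxed C/EBP site 1.05 (adjusted p = 1 for both, Fisher's exact test). Among upstream candidates the TATA box (0.526) and the relaxed C/EBP site (0.502) passed (Fisher's exact test, adjusted p = 0.001 for both), and CGATA turned to 1.06 (adjusted p = 0.785, Fisher's exact test). The part of base composition and position in these differences was not tested. The DRE did not pass, at 4.84% against 6.21% (odds ratio 0.768, adjusted p = 0.346, Fisher's exact test).

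Sites specific to bZIP dimers were rare at the members, as they were in every other set. The CARE was in 0.147% of members, 0.368% of stronger promoter candidates, 0.512% of weaker candidates away from starts and 0.497% of all starts. The CARE was in 1 summit window, at c12.2, and in 2 flanks, and the member at c12.2 had a signal value of only 14.4. That member overlapped a candidate of higher signal value and equal IDR. Its nearest replicate summits lay 242 bp (replicate 1) and 120 bp (replicate 2) away. The C/EBP palindrome TTGCGCAA was in 0, the PAR site TTACGTAA in 1, the CRE palindrome TGACGTCA in 1 and the AP-1 site TGASTCA in 3. At all starts they were in 0.156%, 0.112%, 0.117% and 0.804%, and at stronger promoter candidates in 0.158%, 0.158%, 0.158% and 0.947%. None of these sites, the CARE included, passed against flanks, stronger promoter candidates or weaker candidates away from starts (Fisher's exact or exact McNemar tests). The relaxed C/EBP site was in fewer summit windows than flanks, 60 against 85, and did not pass (exact McNemar test, adjusted p = 0.0804). Of the 682 windows, 315 (46.2%) held none of the 16 motifs, against 32.3% of the stronger promoter candidates.

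**Figure D5:**
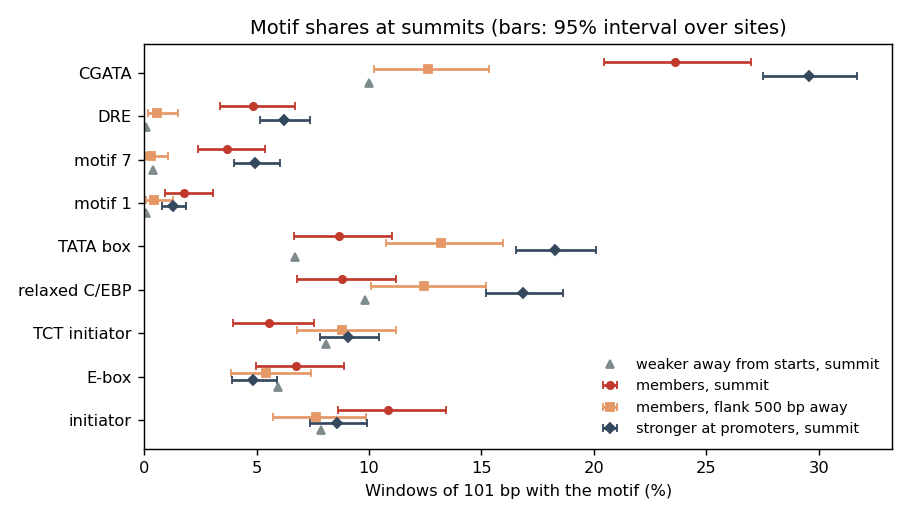
Share of 101 bp windows (%) that hold each of 9 motifs. Red circles are the members' summits, orange squares their flanks 500 bp away, dark diamonds the stronger promoter candidates (each with an exact 95% interval over sites), and grey triangles the weaker candidates away from starts; the members' share of TATA boxes is 8.65%, against 18.3% for stronger promoter candidates.

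The members touched 690 of 13865 protein-coding genes with a start within 500 bp (4.98%), against 16.9% (2344) for stronger promoter candidates. Both kinds were present at 82 genes, which is 11.9% of the genes with a member, beside the 16.9% of all genes, and 3.50% of the genes with a stronger promoter candidate, while 608 had a member only. A pair of members was present at 66 genes, and 68 members had no protein-coding start within 500 bp. These pairs include overlapping candidates of equal IDR, as at Rab35 and ATPsynF, so they need not be separate sites. In all, 42 members overlapped another member in that way. A stronger summit lay within 1000 bp of 67 members (9.82%), and the median distance to one was 7784.5 bp.

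The gene lists are described by counts beside the 4.98% of all genes, with no test. The partner Xrp1 (FBgn0261113) was among the genes with a member. Its candidate, at 3R:18918127-18918482, sat 45 bp downstream of a start with a signal value of 64.9, at the weak end of the band. Replicate 1 had 40.8 there. The nearest replicate 2 summit lay 102 bp away, just past the limit of 100 bp for a match. At Irbp18 itself the candidate was a stronger one, with a signal value of 355. For crc 0 candidates lay at a start.

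Xrp1 belongs to 3 of the lists and is counted in each. Of 18 apoptosis and cell competition genes 4 had a member (22.2%) and 3 a stronger promoter candidate. The members were Diap2, an inhibitor of caspases (81.7), Dcp-1 (75.8) and Drice (75.7), both effector caspases, and Xrp1. Diap2 had 58.7 in replicate 1 and 24.1 in replicate 2, Dcp-1 had 54.2 and 27.2, and Drice had 50.6 and 26.9. Each of these 3 was above the members' median in replicate 1 and below it in replicate 2, and the 4 genes had no stronger promoter candidate. Of 20 bZIP factor genes 4 had a member (20%), at CrebB, the fly CREB (65.0), Xrp1, cnc, the fly Nrf2 (60.5), and Jra, the fly Jun (60.3). CrebB and cnc also had a stronger promoter candidate.

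The integrated stress response list had 3 of 23 genes (13.0%), against 7 with a stronger promoter candidate. PPP1R15, which helps remove the phosphate from eIF2alpha, had 90.5, from 65.6 in replicate 1 and 27.0 in replicate 2. PEK, the eIF2alpha kinase of the endoplasmic reticulum, had 63.8, from 42.7 and 24.2, and its summit lay 341 bp downstream of the start. Xrp1 was the other. PEK was also the 1 gene of 20 on the list of the unfolded protein response.

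Cell cycle genes had 4 of 24 (16.7%). PCNA, the sliding clamp of DNA replication, had 94.1, with 32.5 in replicate 1 and 48.6 in replicate 2, and so was among the members placed higher in replicate 2. Cdk1, the mitotic kinase, had 69.6, and E2f1, the activator of S-phase genes, had 57.4, at 450 bp downstream of its start. Cytosolic ribosomal proteins had 8 of 85 (9.41%), while 49 of the list had a stronger promoter candidate. The 3 highest were RpL35 (78.6), sta, which encodes a small subunit protein (74.9), and RpL7A (66.8).

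Other lists of general functions stood nearer to the share of all genes. Proteasome subunits had 4 of 48 (8.33%), with Prosbeta5, a catalytic subunit (84.7), Rpn11, the deubiquitinase of the lid (74.3), and Rpn2 (63.5). Oxidative phosphorylation had 4 of 84 (4.76%), led by UQCR-14, ND-B14.5A (61.5) and UQCR-C2 (59.4). Mitochondrial ribosomal proteins had 3 of 75 (4%), at mRpS24 (74.6), mRpS7 (69.6) and mRpS6 (53.5), each at a member nearer to the start of another gene, in the case of mRpS7 that of Cdk1. Rab and Vps genes of membrane traffic had 3 of 58, at Vps52 (80.9), Rab35 (76.7) and Rab14 (54.1). The general transcription factor and Mediator list had 3 of 48, at Taf8 (72.8), MED20 (65.4) and MED14 (62.0), and Polr2A, the largest subunit of RNA polymerase II (97.4), was the 1 of 13 polymerase genes. The members of Vps52, MED20 and Polr2A were likewise nearer to the start of another gene.

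Smaller counts came from eIF4G2 (87.3) and eIF3b (74.4) among 43 initiation factors, Atg12 (78.8) among 23 autophagy genes, CysRS-m (72.9) among 33 aminoacyl-tRNA synthetases, noi (62.6) and SmD3 (10.1) among 36 splicing factors, and Hsp23 (64.0) and Hsp26 (4.63) among 26 heat shock proteins. SmD3 and Hsp26, with the low values, are genes that also had a stronger promoter candidate. Of the 29 lists, 26 had more genes with a stronger promoter candidate than with a member.

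Among genes of specific cell types the count of members was small, and it was not tested. On 7 tissue lists with 86 genes together, 1 gene had a member (1.16%, beside 4.98% of all genes), and 13 had a stronger promoter candidate (15.1%). The 1 gene was kkv, the chitin synthase gene of the epidermis and trachea (60.7), on a list of 11 (9.09%). Chemoreceptor genes had 3 of 180 (1.67%), at Gr8a (73.1), Orco, the odorant co-receptor (58.5), and Or74a (57.9), against 0 with a stronger promoter candidate. Their windows held 66.3%, 65.3% and 52.5% GC. Patterning genes had 2 of 31 (6.45%), the Hox gene Abd-B (67.6) and cad with 2 members (67.3 and 61.2). Glycolysis (12 genes), DNA repair and checkpoint (32) and histones (116) had 0, while 6, 14 and 1 of their genes had a stronger promoter candidate.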

How the data were processed

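The authors deposited peak lists on dm6 for each replicate and for both pooled, per the file names and accompanying notes. How reads were aligned and peaks called is not given in sources used here. In every list the deposited signal value is the authors' height of a candidate, with no stated scaling. The deposited score is a whole number without unit and enters no result. The ranked lists deposited by the authors give IDR as a negative decimal logarithm (−log10), and the global one was used. In each ranked list 8 columns of values for single sets were not used. The lists hold no read counts, so depth is unknown.

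Members were taken at their summits on X, 2L, 2R, 3L and 3R. Starts came from Ensembl release 115 (BDGP6, annotation 6.54) without pseudogenes and transposable elements, and sequence from release 6. A replicate summit was matched within 100 bp. Shares were compared over sites by Fisher's exact test and the exact McNemar test, two-sided, with Benjamini-Hochberg adjustment within families of 3 position tests, 5 arms, 5 places, 6 stretches and 16 motifs, and a threshold of 0.05. Such p-values measure sites and not animals. Intervals are exact Clopper-Pearson 95% intervals for counting error only, and neighbouring sites are not independent. Intervals of odds ratios are exact conditional ones over sites.

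Named were the 12 members with the highest signal value, 3 candidates on either side of each end of the band, up to 3 genes per list, the 2 highest members per motif past a test (and for the CARE), and Irbp18, Xrp1 and crc. The rule would also have named members thresholded in both replicates, of which there were 0. The members, the 29 gene lists and the motifs were chosen with earlier results of these data known. The tests by place and by stretch, and 5 alternatives (summits in both replicate lists, overlapping candidates counted once, downstream flanks, windows of 40 to 50% GC, and upstream candidates only), were added after seeing the data. The analysis used Python 3.11.15, pandas 2.3.3, numpy 2.4.6, scipy 1.17.1 and matplotlib 3.10.9, and was tested on simulated data.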

Additional observations from a re-analysis of the deposited data

How the results depend on the processing

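Of 231 values recomputed for 17 results under 17 alternatives, 178 kept direction and call or, for counts, stayed within 1.5 times. The upstream share, the divergent share and the GC content kept direction and call under all alternatives run, with odds ratios of 0.294 to 0.466, 0.417 to 0.704 and 0.195 to 0.364. The number of members moved to 451 with a start distance of 200 bp and 250 with an IDR of up to 0.02, and their genes to 448 and 268. Leaving out replicate 1 or replicate 2 gave 310 to 477 members and 360 to 553 genes. The odds ratio of the share within 100 bp of a start reversed to 1.2 at 200 bp and 1.08 at an IDR up to 0.02, and to between 1.05 and 1.36 without either replicate. It missed the threshold with protein-coding starts only (0.880), summits in both replicate lists (0.901) and overlapping candidates counted once (0.861). Arms past the test numbered 1 at 200 bp, 3 at 1000 bp, and 0 to 1 without either replicate. Motifs past the test against stronger promoter candidates numbered 2 with protein-coding starts only, an IDR up to 0.02, summits in both replicate lists or upstream candidates, 1 in windows of 40 to 50% GC, and 2 without either replicate. Against flanks the motifs under the threshold numbered 2 without replicate 1 and 4 without replicate 2, beside 4 with both. The rule keeps members near starts, where such motifs occur, so these counts restate the rule in part and show no robustness. The flank values among the 231 share this limit. The TATA box against flanks (59 against 90, ratio 0.656) reversed to 1.07 without replicate 1 and 1.08 without replicate 2. The relaxed C/EBP site reversed to 1.05 in windows of 40 to 50% GC and ran from 0.531 to 1.05 without either replicate, and CGATA to 1.06 among upstream candidates. The cause was not tested. One candidate per 100 bp changed nothing, since summits lay at least 199 bp apart. Its values are among the 178 and could not have differed. No paired analysis was possible because there is 1 group. Depth is unknown, so the limit it sets on weak sites cannot be given. Nothing beyond the label of biological replicate says how far the 2 embryo collections were separate.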

Other observations

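The nearest start belonged to a noncoding gene for 76 members (11.1%), against 105 stronger promoter candidates (5.53%; odds ratio 2.14, adjusted p = 4.65e-06 by Fisher's exact test over 5 places) and 20.8% of the weaker candidates away from starts. On the 5 arms the annotation held 3231 genes of class ncRNA beside 13865 protein-coding ones. Noncoding genes were thus a larger share of annotated genes than of the members' nearest starts. By class the 76 were 69 of the annotation's class ncRNA, 3 snoRNAs, 3 tRNAs and 1 snRNA. The members with the highest signal values among them, chosen after their values were seen, lay 8 bp downstream of the start of asRNA:CR44704 (95.9, with 30.3 in replicate 1 and 52.5 in replicate 2) and 34 bp downstream of that of RNaseMRP:RNA, the RNA of an RNA-processing enzyme (88.0, with 55.8 and 26.3). They thus leaned to different replicates. A member with 76.8 lay 176 bp upstream of lncRNA:bxd of the bithorax complex, with 38.0 in replicate 1 and 28.3 in replicate 2.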
